A study of Arabidopsis thaliana with 48 samples.

Results

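The 35 core and linker histone genes of Arabidopsis thaliana were followed in whole-seedling RNA-seq of wild type, INO80 complex mutants and INO80 transgenic lines. They were taken by locus identifier from the 32548 loci of the deposited tables. All 35 were found in both tables, and all 35 passed the filter on low values in both. By class they are 8 H4 genes, 5 H3.1 genes, 3 H3.3 genes, 4 H2A genes, 2 H2A.X genes, 3 H2A.W genes, 7 H2B genes and 3 H1 genes. The H2A.Z genes were not among the members.

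Histones H2A, H2B, H3 and H4 form the octamer around which nucleosomal DNA is wrapped, and H1 binds the linker DNA between nucleosomes. H3.1 is the replication-coupled form of H3, made mainly in S phase, while H3.3 is deposited independently of replication and is enriched over transcribed genes. H2A.X carries the phosphorylation site used at DNA breaks, and H2A.W is the plant variant found in heterochromatin. INO80 is the ATPase of a chromatin remodelling complex that moves and edits nucleosomes, and ARP5 is a subunit of that complex.

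The 48 libraries came from 9 genotypes: Col-0 wild type, 5 mutants (ino80, arp5, nfrkb1/2/3, uch1/2, atx4/5;jmj24) and 3 lines that are ino80 mutants with a transgene. The transgene is full-length INO80 in INO80-FL, in INO80-(1-550) the N-terminal part (residues 1 to 550) and in INO80-(335-1540) the C-terminal part (residues 335 to 1540). The mutant labels mark every named gene as homozygous, and neither the promoters of the transgenes nor the number of independent lines is given in the labels. Set 1 held repeats 1 and 2 of all 9 genotypes in long days (LD, 16 h of light, seedlings 11 days old) and short days (SD, 8 h of light, 14 days old), which makes 18 groups of 2 libraries. Set 2 held repeats 3 and 4 of Col-0, ino80, nfrkb1/2/3, uch1/2, atx4/5;jmj24 and INO80-FL in SD, with no age in the sample label. The sets were normalized apart and were tested apart. Nothing in the labels says that repeats came from separately grown seedlings, so p-values measure the spread between these libraries, which may be technical.

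Library totals were 18867187 to 22653356 in set 1 and 20080952 to 22921363 in set 2. The INO80 transcript in ino80 was at 54.5% of Col-0 in LD, 44.7% in SD of set 1 and 59.2% in set 2, and in the transgenic lines at 227% to 765%. UCH2 in uch1/2 was at 14.2% to 19.3% of Col-0, UCH1 at 41.3% to 52.5%, and ATX4 in atx4/5;jmj24 at 24.9% to 27.4%, while ATX5 there was at 44% to 121%. The transcripts of JMJ24 and of the NFRKB genes were not read. ARP5 in the libraries labelled arp5 was at 1830% of Col-0 in LD and 2150% in SD, which goes against a loss of that transcript, so directions below refer to the libraries labelled arp5. Leaf marker genes were abundant in every library. Their summed level in LD was 878900 and 936200 in Col-0, against 587000 and 572900 in ino80 and 618200 and 586900 in nfrkb1/2/3. It was 617200 and 653900 in uch1/2, while INO80-FL, at 925300 and 841800, overlapped Col-0. Every LD library of the other lines stood above those of these mutants. The summed level of 3 seed marker genes ran from 1.6 to 2070 among set 1 libraries. It was highest in SD repeat 2 of atx4/5;jmj24 and next in SD repeat 2 of arp5 (1635). Values of 1057 in ino80 LD repeat 2 and 1009 in INO80-(1-550) SD repeat 1 followed.

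Upstream of the genes, 2 short elements known from plant histone promoters were spread unevenly over the classes. The octamer CGCGGATC (reverse complement GATCCGCG) was present on either strand within 250 bases of the RefSeq start in 10 of 35 members (28.6%), against 37 of 27443 promoters of the genome (0.135%). The hexamer ACGTCA (reverse complement TGACGT) was present in 9 of 35 members (25.7%), against 2110 of 27443 (7.69%). The octamer was found in 3 of 5 H3.1, 2 of 8 H4, 2 of 4 H2A, 1 of 3 H3.3, 1 of 3 H2A.W and 1 of 3 H1 genes, and in 0 of 7 H2B and 0 of 2 H2A.X genes. The hexamer was found in 6 of 7 H2B genes, 2 of 5 H3.1 genes and 1 of 3 H3.3 genes, and in no other class. In the exact forms searched, an E2F site (TTTCCCGC) and the telo box (AAACCCTAA) were in 0 of 35 windows, with genome shares of 0.619% and 2.61%. Other forms of the E2F site were not searched. A letter match is a description of the window and not evidence of a bound factor.

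The 4 windows printed here were chosen because their genes carry the contrasts described below: an H3.1 and an H2A gene with paired octamers, and the H2B genes AT2G28720 and AT3G53650, which moved in opposite directions. Each is the 250 bases before the RefSeq start (TAIR10.1), 5′ to 3′ on the strand of the gene, with octamer or hexamer letters in capitals. AT1G09200 is at chr1:2972335-2972584, minus strand, with octamers 90 and 19 bases before the start. HTA10 is at chr1:18926561-18926810, plus strand, with octamers at 74 and 10 bases. AT2G28720 is at chr2:12326558-12326807, plus strand, and AT3G53650 at chr3:19889047-19889296, plus strand, each with 1 hexamer.
AT1G09200: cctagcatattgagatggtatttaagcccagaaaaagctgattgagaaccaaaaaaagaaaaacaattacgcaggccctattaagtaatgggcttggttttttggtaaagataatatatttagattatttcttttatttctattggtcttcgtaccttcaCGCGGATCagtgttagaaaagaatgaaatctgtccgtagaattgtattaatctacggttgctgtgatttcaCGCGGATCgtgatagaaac
HTA10: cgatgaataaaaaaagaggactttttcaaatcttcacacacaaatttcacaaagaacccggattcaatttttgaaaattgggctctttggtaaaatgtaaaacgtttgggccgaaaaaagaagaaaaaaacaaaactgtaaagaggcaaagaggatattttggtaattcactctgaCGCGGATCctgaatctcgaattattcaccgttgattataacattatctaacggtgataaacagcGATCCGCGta
AT2G28720: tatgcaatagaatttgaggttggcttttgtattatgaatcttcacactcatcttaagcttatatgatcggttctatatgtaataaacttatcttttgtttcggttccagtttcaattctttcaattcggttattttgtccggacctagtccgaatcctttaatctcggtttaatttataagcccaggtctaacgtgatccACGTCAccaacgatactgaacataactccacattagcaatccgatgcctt
AT3G53650: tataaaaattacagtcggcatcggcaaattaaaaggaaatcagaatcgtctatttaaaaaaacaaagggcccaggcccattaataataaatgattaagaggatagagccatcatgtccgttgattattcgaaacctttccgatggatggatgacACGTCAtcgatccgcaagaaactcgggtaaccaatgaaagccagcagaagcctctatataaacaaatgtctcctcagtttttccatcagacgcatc

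**Figure D1:**
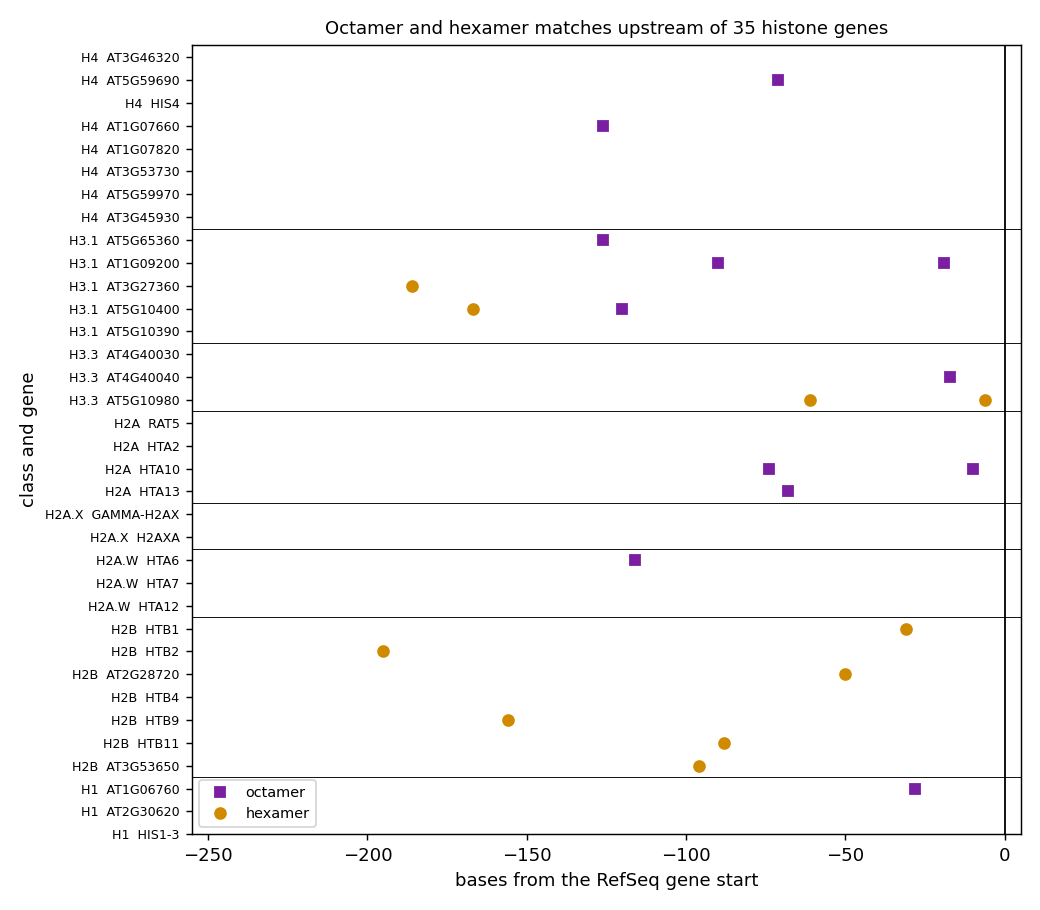
Positions of octamer (squares) and hexamer (circles) matches in bases from the RefSeq start, for each of the 35 genes by class. Octamers stand upstream of 10 genes, none of them H2B, and hexamers upstream of 9 genes, 6 of them H2B.

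Levels spanned a wide range within classes. Per kilobase of exon, the mean over set 1 libraries was highest for the H3.3 genes AT4G40040 (3883), AT4G40030 (3326) and AT5G10980 (2971). The H2B genes HTB4 (2307 per kilobase) and HTB11 (1947) and the H3.1 gene AT1G09200 (1673) followed, and the lowest of the 35 was the H2B gene AT3G53650 at 84.5 per kilobase. Some genes gave most of their class, as H2AXA did for H2A.X with 83.2% of the summed value, AT2G30620 for H1 with 54.4% and HTA10 for H2A with 45.7%. The mean of a group varied 14-fold over the 18 groups for the linker histone HIS1-3, 5.48-fold for AT2G28720 and 3.70-fold for AT3G53650, but 1.12-fold for the H3.3 gene AT5G10980.

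In Col-0 the leading gene of each class had the following deposited values in its LD repeats, its SD repeats of set 1 and its SD repeats of set 2. The H4 gene AT5G59690 read 1220 and 1229, then 1012 and 1068, then 1693 and 1796. The H3.1 gene AT1G09200 read 1521 and 1576, then 830 and 948, then 2110 and 2130. The H3.3 gene AT4G40040 read 5537 and 5152, then 7168 and 7044, then 7040 and 7374. Thus H4 and H3.1 stood lower in SD than in LD within set 1, and H3.3 stood higher, with no overlap between libraries. HTA10 read 1278 and 1132, 1005 and 992, and 1637 and 1600. H2AXA read 1346 and 1147, 1071 and 1196, and 1891 and 1822, so that LD and SD overlapped. The H2A.W gene HTA7 read 817 and 805, 895 and 960, and 1089 and 1085. HTB4, the most abundant H2B gene, was flat at 3202 and 3260, 3283 and 3303, and 3224 and 3094.

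Day length together with age gave the broadest change of the family. In Col-0 of set 1, 3 of 35 members were higher and 23 lower in SD than in LD at an adjusted p under 0.05 (limma, Benjamini-Hochberg over all genes tested), where 37.6% of all genes passed, 18.3% higher and 19.3% lower. The members' median log2 fold change was -0.36, against 0 over all genes. By class, 6 of 8 H4, 5 of 5 H3.1, 3 of 4 H2A, 2 of 3 H2A.W and 6 of 7 H2B genes were lower, while 2 of 3 H3.3 genes were higher. The LD seedlings were 11 days old and the SD seedlings 14, so day length and age cannot be told apart, nor, in whole seedlings, can fewer dividing cells be told apart from less RNA per cell.

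The summed H3.1 value in Col-0 was 3963 ± 14.8 in LD and 2420 ± 213 in SD (SD, n = 2), and the summed H4 value 4469 ± 13.3 and 3268 ± 162. Summed H3.3 moved the other way, from 11990 ± 403 to 15810 ± 122. The ratio of H3.1 to H3.3 was therefore 0.331 in LD and 0.153 in SD of set 1. It was 0.359 in SD of set 2, normalized on its own, and the summed H3.1 value there was 5429 ± 227. The set 2 libraries are labelled with the same day length as SD of set 1, yet their H3.1 to H3.3 ratio was near that of the LD libraries.

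**Figure D2:**
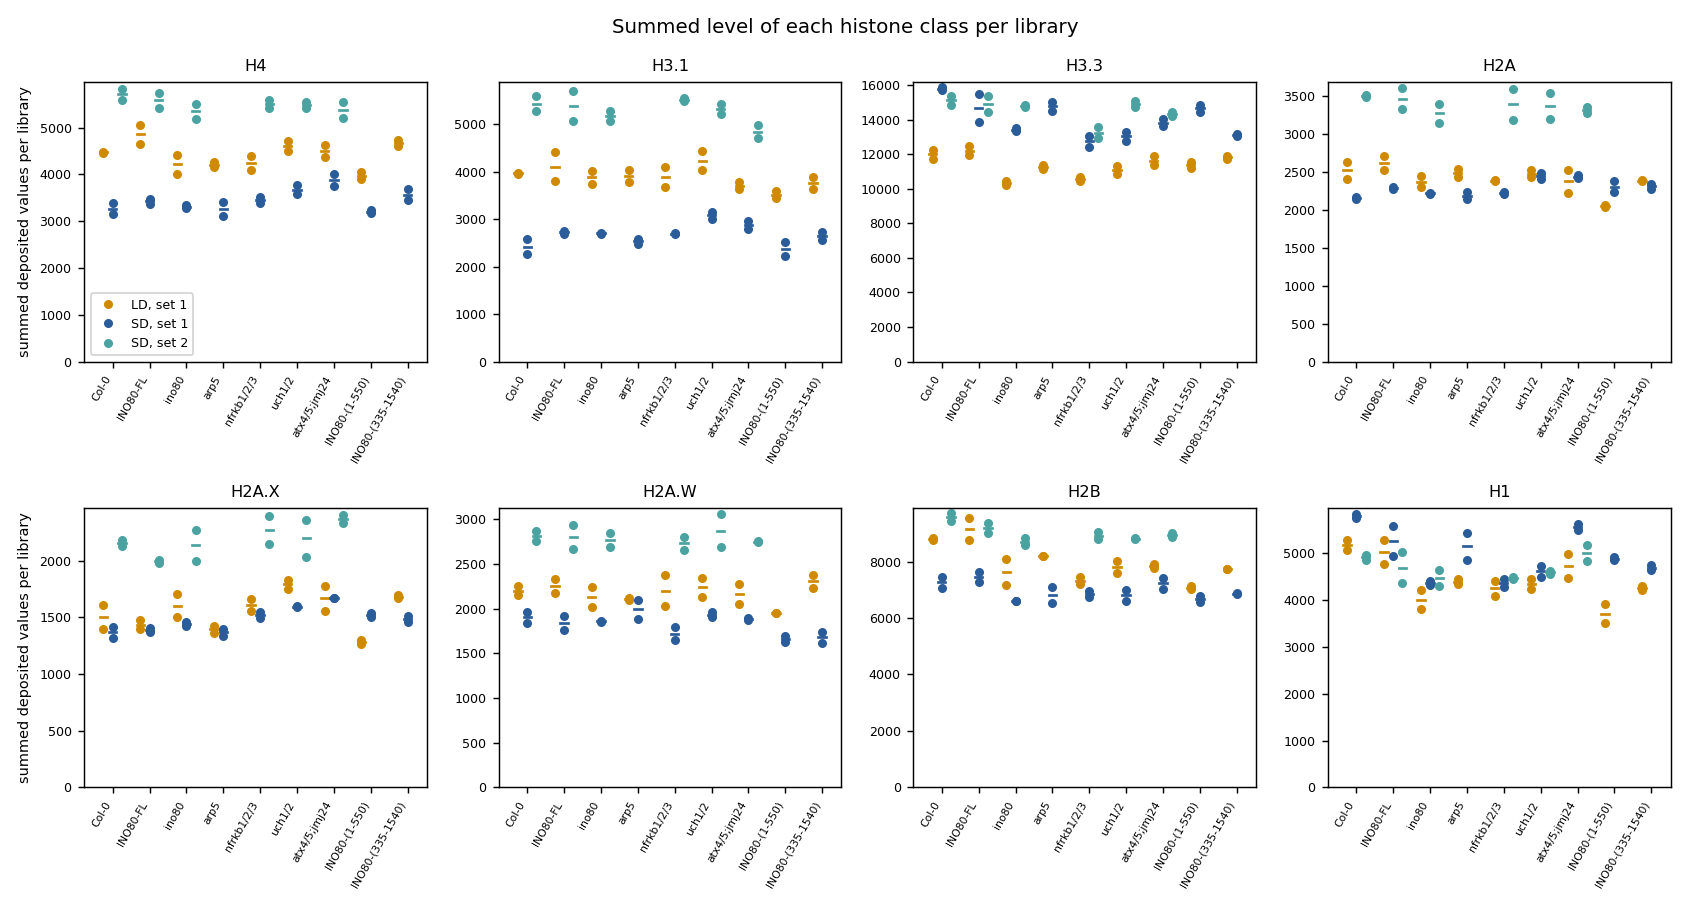
Summed deposited value of each histone class in each library (points) with the mean of each group (bars), by genotype, for LD of set 1, SD of set 1 and SD of set 2; every axis starts at 0. In Col-0, H3.1 fell from a mean of 3963 in LD to 2420 in SD of set 1 while H3.3 went from 11990 to 15810.

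Of the 26 members called in Col-0, 11 were called in the same direction in all 9 genotypes and 15 were not (7 in all 9 under equal library totals, 10 under quantile normalization). The genes AT3G46320, AT5G59690 and HIS4 (H4), AT5G65360, AT1G09200 and AT5G10400 (H3.1), HTA6 (H2A.W), and AT2G28720 and HTB11 (H2B) were lower in SD in 9 of 9 genotypes. HIS4 differed by a log2 of -1.05 to -0.57 and AT1G09200 by -0.80 to -0.47. Under equal library totals AT2G28720, AT3G46320 and AT5G59690 were lower in 8 of 9, and AT5G10400 and HTB11 in 6 of 9. AT5G10400 was lower in 8 of 9 under quantile normalization. AT4G40030 was higher in 9 of 9 genotypes under each of the 3 scalings, by 0.40 to 0.66. Among the other lines, ino80 had 4 members higher and 17 lower (background 32.8%), arp5 5 and 21 (34.1%), nfrkb1/2/3 3 and 15 (34.5%), and uch1/2 2 and 16 (30.8%). The counts were 4 and 11 in atx4/5;jmj24 (33.4%), 3 and 20 in INO80-FL (32.2%), 7 and 14 in INO80-(1-550) (34.9%), and 3 and 16 in INO80-(335-1540) (33.5%). With libraries scaled to equal totals the split became 3 and 22 in Col-0, 5 and 11 in uch1/2, 7 and 6 in atx4/5;jmj24, 10 and 9 in INO80-(1-550), and 8 and 9 in INO80-(335-1540). The backgrounds above are for the values as deposited and do not apply to these splits.

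The linker histone gene HIS1-3, annotated by RefSeq as induced by dehydration and abscisic acid, gave the largest day-length difference of the family. In Col-0 it read 251 and 282 in LD and 1460 and 1685 in SD, a 5.88-fold difference (log2 2.56, SE 0.227, adjusted p = 6.38e-09). Every SD library of set 1, the lowest at 777, stood above every LD library, the highest at 294. The log2 difference ran from 2.15 to 3.13 over the 9 genotypes and passed in all 9 under each scaling. In the same Col-0 comparison, where 18.3% of all genes were higher and 19.3% lower, 7 of 8 drought and abscisic acid genes were higher (median log2 1.52). LTI65 rose by 4.82 and COR15A by 2.86, whereas KIN1 gave 0.15 and did not pass. Of 10 mitotic genes 8 were lower (median -0.69), and of 19 DNA replication genes 9 were lower and 2 higher (median -0.27).

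**Figure D3:**
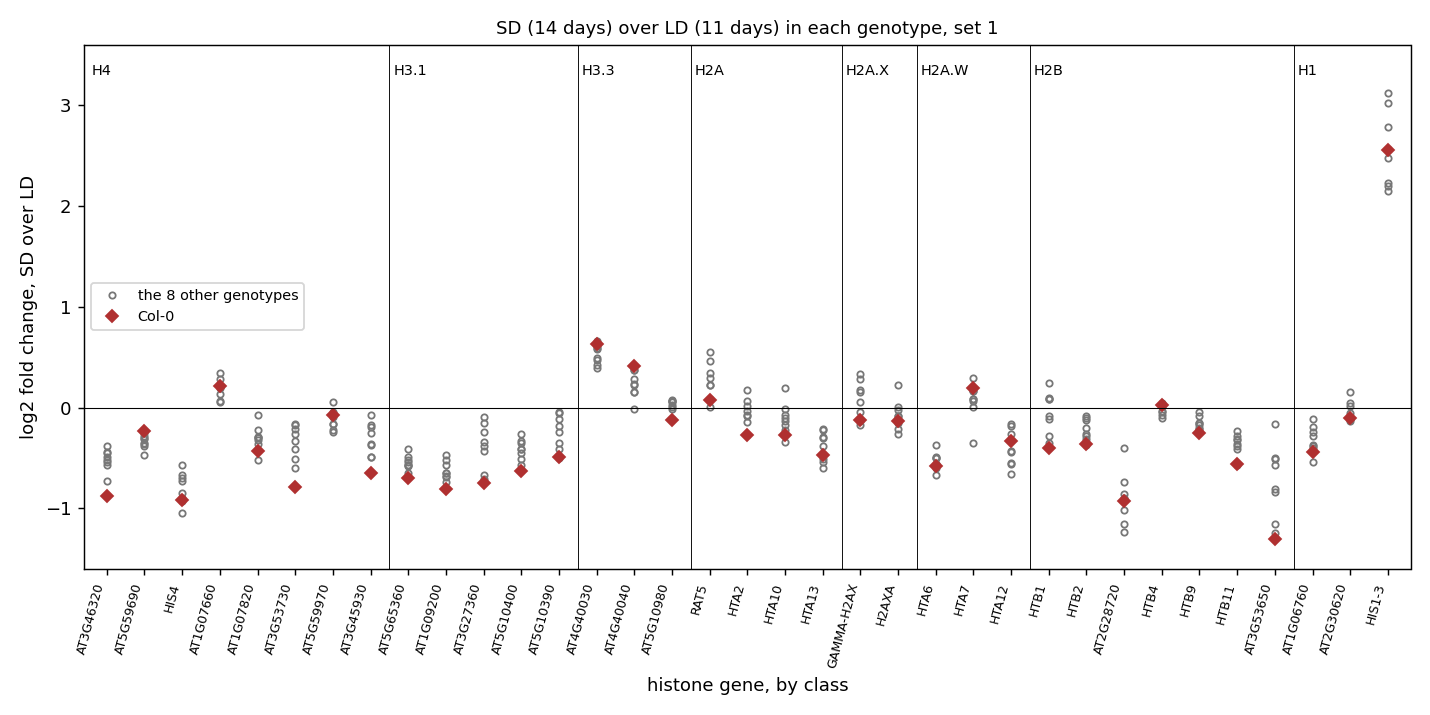
Log2 fold change of SD over LD in set 1 for each histone gene, with Col-0 as filled diamonds and the other genotypes as open circles. HIS1-3 stands alone at 2.15 to 3.13, AT4G40030 lies above 0 in every genotype, and the H3.1 genes lie below 0.

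Against Col-0, the number of histone genes that passed was at or below the genome-wide share in LD in every line but INO80-(1-550). In LD, ino80 had 1 member higher and 9 lower, 28.6% of the 35 against 28.6% of all genes, of which 13.2% were higher and 15.5% lower. The arp5 libraries had 0 higher and 3 lower, with a background of 9.9% (3.64% and 6.26%), nfrkb1/2/3 had 0 and 6, with 25.5% (11.2% and 14.3%), and uch1/2 had 1 and 5, with 28.5% (12.8% and 15.7%). The counts in atx4/5;jmj24 were 1 and 2, with 13.3% (5.89% and 7.41%). INO80-(1-550) had 0 higher and 13 lower with 24.8% (11.7% and 13.1%), the most lower calls of the family in any line, and INO80-(335-1540) had 2 and 5, with 26.9% (13.1% and 13.9%). Member medians in LD lay between -0.22 and 0.05 on the log2 scale, with a median of 0 over all genes.

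In SD of set 1 the balance was different. The uch1/2 libraries had 14 members higher and 6 lower against a background of 38.7% (18.1% and 20.6%), and atx4/5;jmj24 had 12 higher and 2 lower, with 27.2% (11.9% and 15.3%). The ino80 libraries had 5 and 7, with 35.1% (16.3% and 18.7%), arp5 had 1 and 2, with 16.2% (7.31% and 8.87%), and nfrkb1/2/3 had 4 and 9, with 31.8% (14.7% and 17.1%). Of the truncated lines, INO80-(1-550) had 3 and 7, with 24.3% (10.8% and 13.5%), and INO80-(335-1540) had 6 and 7, with 33.9% (15.6% and 18.3%). Few members passed in SD of set 2: 1 higher and 2 lower in ino80 (background 14%), 1 and 3 in nfrkb1/2/3 (28.2%), 1 and 2 in uch1/2 (14.5%) and 0 and 2 in atx4/5;jmj24 (4.08%).

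These splits depended on the scaling. Here and below, counts under the other scalings are given without the share of all genes called under that scaling. They show how far the splits moved and are not set against a background. When libraries were set to equal totals, the median of all genes shifted by 0.13 in ino80 LD and by 0.13 to 0.19 in SD of set 1 for ino80, arp5, nfrkb1/2/3, uch1/2, atx4/5;jmj24 and the truncated lines. The LD shift was 0.12 in arp5, 0.15 in nfrkb1/2/3 and 0.10 in uch1/2, and that of nfrkb1/2/3 in set 2 was 0.16. The split then became 2 higher and 4 lower in ino80 LD, 1 and 2 in arp5 LD, 3 and 4 in nfrkb1/2/3 LD, 6 and 4 in uch1/2 LD, 2 and 1 in atx4/5;jmj24 LD, 1 and 8 in INO80-(1-550) LD and 2 and 3 in INO80-(335-1540) LD. For SD of set 1 it became 16 and 4 in ino80, 3 and 1 in arp5, 18 and 2 in nfrkb1/2/3, 20 and 2 in uch1/2, 22 and 2 in atx4/5;jmj24, 13 and 0 in INO80-(1-550) and 17 and 3 in INO80-(335-1540). In set 2 it became 1 and 1 in ino80, 7 and 2 in nfrkb1/2/3 and 1 and 1 in uch1/2. Quantile normalization gave 5 and 4 in ino80, 1 and 1 in arp5, 7 and 5 in nfrkb1/2/3, 16 and 2 in uch1/2, 4 and 3 in INO80-(1-550) and 10 and 4 in INO80-(335-1540) in SD of set 1. It gave 2 and 4 in uch1/2 LD and 1 and 1 in ino80 in set 2. Leaving out repeat 1 of ino80 in LD took its count from 10 to 3, and leaving out repeat 1 of Col-0 in SD took that of atx4/5;jmj24 from 14 to 7. Single libraries also moved the count by over 1.5 times in arp5, uch1/2 and INO80-(335-1540) in LD, in ino80, arp5, nfrkb1/2/3 and both truncated lines in SD of set 1, and in ino80 and atx4/5;jmj24 in set 2.

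**Figure D4:**
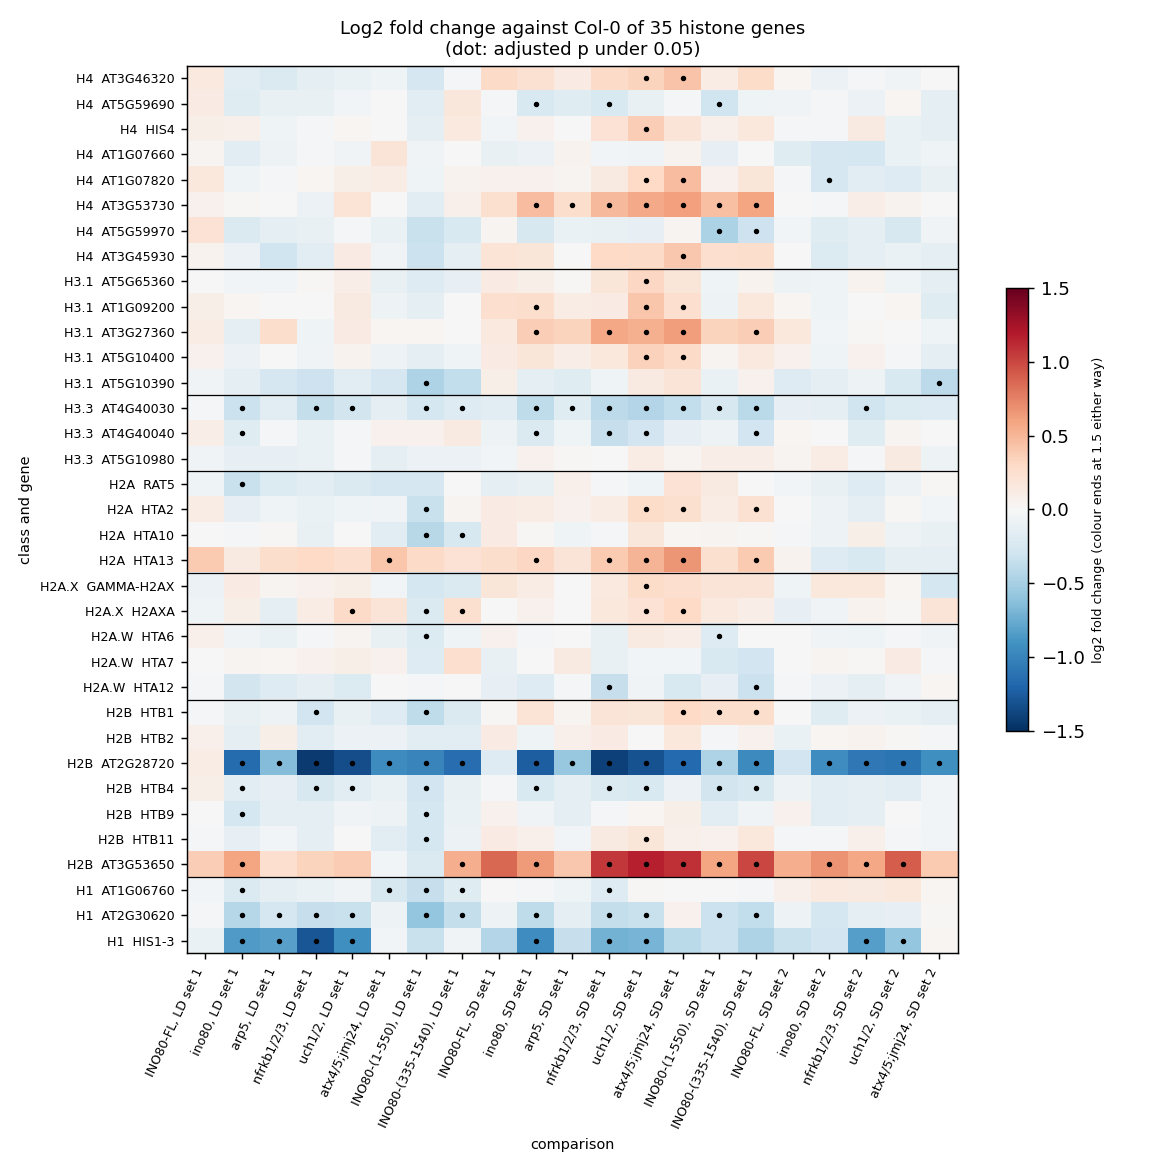
Log2 fold change against Col-0 of each histone gene (rows, by class) in each line, day length and set (columns), with a dot where the adjusted p was under 0.05. AT2G28720 is lower in 18 of 18 comparisons other than INO80-FL, and INO80-FL has no dot in LD, SD of set 1 or SD of set 2.

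The H2B genes gave the largest contrasts, in both directions. AT2G28720 (chromosome 2, 12326808 to 12327808) was lower than Col-0 in 18 of 18 comparisons of lines other than INO80-FL, by a log2 of -1.43 to -0.46. In LD it read 831 and 768 in Col-0, 328 and 390.0 in ino80, 545 and 477 in arp5, and 318 and 274 in nfrkb1/2/3. It read 350 and 287 in uch1/2, 364 and 477 in atx4/5;jmj24, 458 and 355 in INO80-(1-550), and 371 and 352 in INO80-(335-1540). No library of these lines reached the lower Col-0 library, whereas INO80-FL read 938 and 793.

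The AT2G28720 values in SD of set 1 were 443 and 396.5 in Col-0, 187 and 168 in ino80, 297 and 267 in arp5, 150 and 167 in nfrkb1/2/3, and 164 and 175 in uch1/2. They were 192 and 181 in atx4/5;jmj24, 304 and 305 in INO80-(1-550), and 226 and 207 in INO80-(335-1540). Those of set 2 were 1024 and 757 in Col-0, 457 and 464 in ino80, 444 and 393 in nfrkb1/2/3, 427 and 393 in uch1/2, and 512 and 422 in atx4/5;jmj24. The lines stayed below Col-0 without overlap in both sets. INO80-FL read 376 and 357 in set 1 and 765 and 682 in set 2, where it overlapped Col-0.

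The AT2G28720 difference was 2.23-fold in ino80 LD (log2 -1.16, SE 0.134, adjusted p = 8.52e-07) and 2.70-fold in nfrkb1/2/3 LD (log2 -1.43, adjusted p = 5.46e-08). In set 2 it was 1.91-fold in ino80 (adjusted p = 0.00314) and 2.15-fold in uch1/2 (adjusted p = 0.00138). It was smallest in arp5 (log2 -0.65 in LD and -0.57 in SD) and in INO80-(1-550) in SD (-0.46, adjusted p = 0.0141). When each library was left out in turn, 14 of the 18 calls were kept. Those lost were arp5 LD without arp5 repeat 2 (adjusted p = 0.0541), arp5 SD without arp5 repeat 2 (0.0609) or Col-0 repeat 1 (0.0594), INO80-(1-550) SD without its repeat 1 (0.068), its repeat 2 (0.0611) or Col-0 repeat 1 (0.122), and atx4/5;jmj24 in set 2 without its repeat 4 (0.0761) or Col-0 repeat 3 (0.0536). Under equal library totals 17 of 18 passed, and under quantile normalization 18 of 18. When only the groups compared were fitted, 15 of 18 passed, and the calls of atx4/5;jmj24 in LD (adjusted p = 0.105) and in set 2 (0.142) and of ino80 in set 2 (0.0516) were lost.

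AT3G53650 (chromosome 3, 19889297 to 19890251), another H2B gene and the weakest member, ran in the opposite direction. It was higher than Col-0 in 11 of 18 comparisons as deposited, in 13 under equal totals and in 9 under quantile normalization. It read, in SD of set 1, 27.3 and 41.5 in Col-0, 75.6 and 77.8 in uch1/2, 72.8 and 73.4 in atx4/5;jmj24, and 73.9 and 68.6 in nfrkb1/2/3. The uch1/2 difference was 2.24-fold (log2 1.17, SE 0.191, adjusted p = 3.78e-05). In set 2 it read 73.5 and 105 in Col-0, 161 and 170 in uch1/2, and 148 and 133 in ino80. The arp5 SD libraries, at 48.4 and 41.3, overlapped Col-0, and INO80-FL, at 58.3 and 65.7, stood above Col-0 without passing (adjusted p = 0.0956). When only the groups compared were fitted, 5 of the 11 calls passed. Those lost included the set 2 calls of ino80 (adjusted p = 0.146), nfrkb1/2/3 (0.117) and uch1/2 (0.08). Of the 11 calls, 5 were kept whichever library was left out, and the other 6 were lost in at least 1 refit, with adjusted p from 0.0768 to 0.387.

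The other H2B genes passed in fewer comparisons or by less. HTB4 was lower in 9 of 18 comparisons as deposited, by -0.28 to -0.16 where it passed, but in 1 under equal totals and 1 under quantile normalization. HTB1 was higher in 3 and lower in 2 comparisons, HTB9 lower in 2, HTB11 higher in 1 and lower in 1, and HTB2 passed in none. The hexamer upstream of AT2G28720 and AT3G53650 was thus shared by genes that moved in opposite directions and by HTB2, which passed in 0 of 18 as deposited and was higher in 3 under equal totals.

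**Figure D5:**
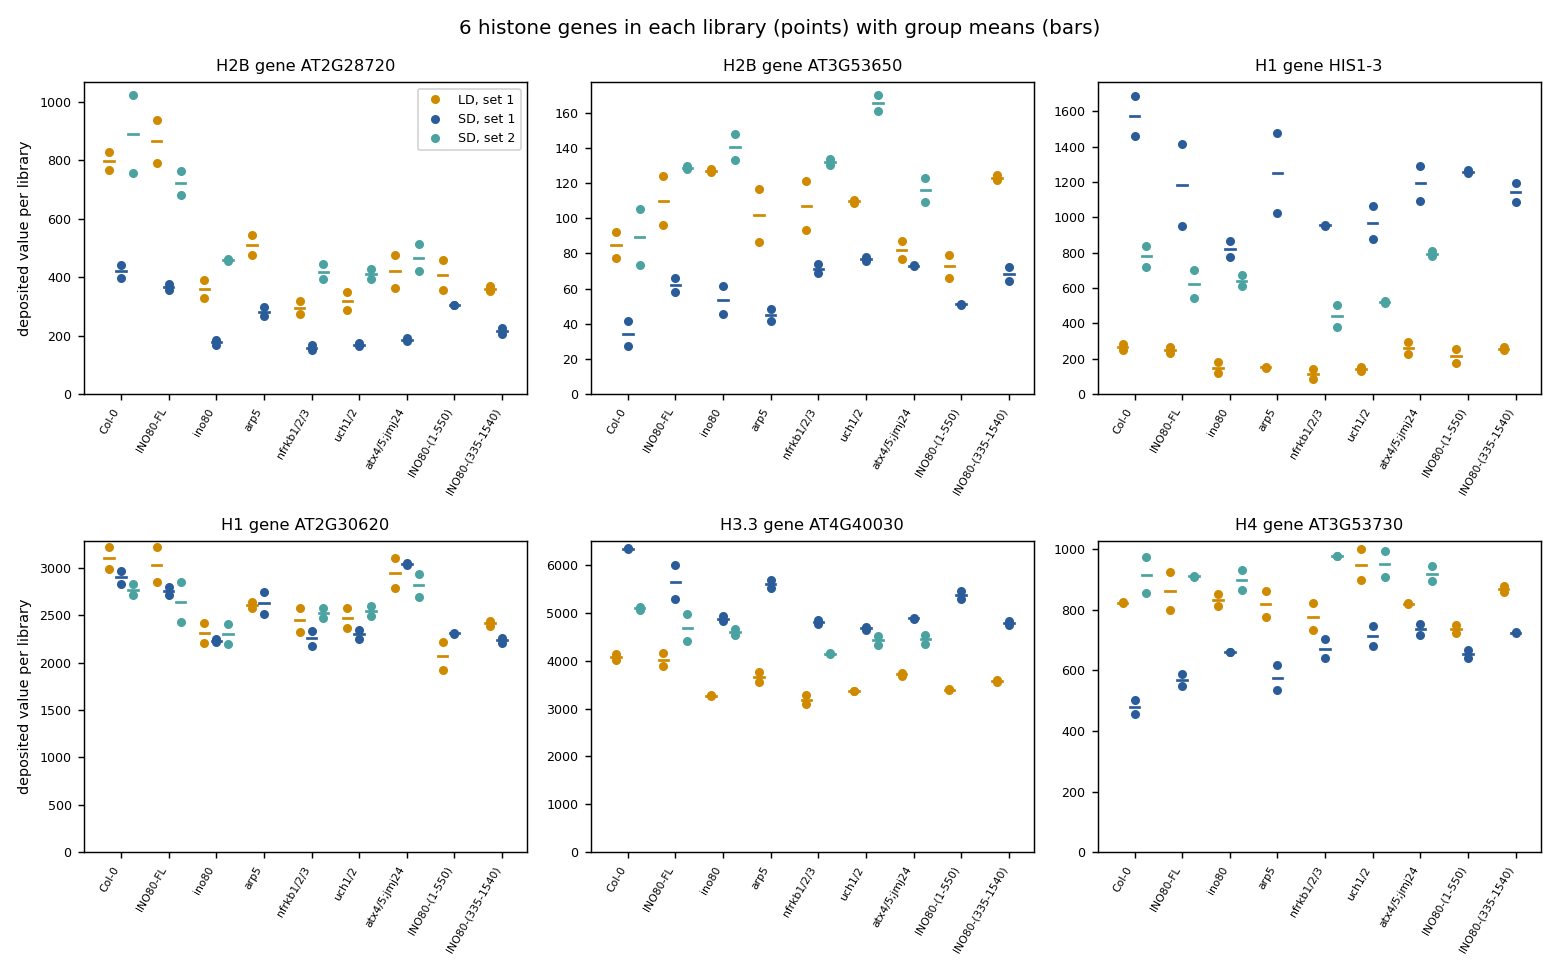
Deposited value in each library (points) with group means (bars) for 6 histone genes, by genotype, for LD and SD of set 1 and SD of set 2; every axis starts at 0. AT2G28720 is lower than Col-0 in each mutant and truncated line and near Col-0 in INO80-FL, while HIS1-3 is above 776 in every SD library of set 1 and below 295 in every LD library.

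All 3 linker histone genes were called lower in ino80 in LD as deposited. When only the 2 groups compared were fitted, the calls of AT1G06760 (adjusted p = 0.0584) and HIS1-3 (0.062) were lost. AT2G30620, the main H1 gene of these seedlings, read 3220 and 2988 in Col-0, 2204 and 2418 in ino80, and 3222 and 2847 in INO80-FL, so ino80 stood apart from both. Its log2 fold change in ino80 was -0.43 (SE 0.074, adjusted p = 1.23e-04) in LD and -0.38 in SD of set 1, where it read 2964 and 2833 in Col-0 and 2215 and 2245 in ino80. The largest difference was in INO80-(1-550) in LD, at 2222 and 1926 (log2 -0.58, adjusted p = 2.84e-06). AT2G30620 was lower in 11 of 18 comparisons as deposited, 7 under equal totals and 9 under quantile normalization, and 10 of the 11 calls were kept whichever library was left out. In set 2 it passed in no line, with 2407 and 2201 in ino80 against 2708 and 2828 in Col-0 (log2 -0.27, adjusted p = 0.0662). In atx4/5;jmj24 in SD of set 1 it gave a log2 of 0.07 as deposited and passed as higher, at 0.23, under equal totals. Annotated genes on the other strand overlap AT2G30620 and AT1G06760, and also HTA13, HTA12 (H2A.W), HTB9 and GAMMA-H2AX (H2A.X). The H3.1 gene AT3G27360 is overlapped by AT3G27380 on the same strand. The strand setting of the counting is not stated.

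HIS1-3, besides its day-length difference, was lower than Col-0 in 9 of 18 comparisons (6 under equal totals, 8 under quantile normalization). In LD it read 251 and 282 in Col-0, 120 and 181 in ino80, 140 and 84.5 in nfrkb1/2/3, and 128 and 153 in uch1/2, all below Col-0. The nfrkb1/2/3 difference was 2.43-fold (log2 -1.28, SE 0.227, adjusted p = 1.65e-04). In set 2 it was lower in nfrkb1/2/3 (382 and 506 against 841 and 721 in Col-0, adjusted p = 0.00342) and uch1/2 (525 and 514, adjusted p = 0.0317). It did not pass in atx4/5;jmj24, at 294 and 227 in LD and 808 and 779 in set 2. Of its 9 calls 3 were kept whichever library was left out, and the other 6 were lost in at least 1 refit, with adjusted p from 0.0512 to 0.179. Of 8 drought and abscisic acid genes, 6 were lower in ino80 in SD of set 1 (median log2 -1.23), where 18.7% of all genes were lower. Some calls of this list, that of ABI1 among them, were lost when a single library was left out.

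AT1G06760, the remaining H1 gene, read 1808 and 1802 in Col-0 and 1486 and 1614 in ino80 in LD, and 1321 and 1334 against 1241 and 1378 in SD of set 1, where they overlapped. It was lower in 5 of 18 comparisons as deposited but in 1, with 2 higher, under equal totals. Only its call in INO80-(1-550) in LD (log2 -0.34) was kept whichever library was left out. The summed H1 value was 77.5% of Col-0 in ino80 in LD, 75.2% in SD of set 1 and 90.8% in set 2.

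Among the H3.3 genes the change was that of AT4G40030. In LD it read 4141 and 4019 in Col-0, 3257 and 3275 in ino80, 3286 and 3090 in nfrkb1/2/3, and 3358 and 3375 in uch1/2. The SD values of set 1 were 6339 and 6345 in Col-0, 4927 and 4825 in ino80, 4703 and 4649 in uch1/2, and 4901 and 4878 in atx4/5;jmj24. The groups did not overlap in either day length. It was lower in 13 of 18 comparisons as deposited and in 10 under each of the other scalings. The difference in uch1/2 in SD was 1.36-fold (log2 -0.44, SE 0.051, adjusted p = 5.35e-07). In set 2 it passed in nfrkb1/2/3 (log2 -0.30, adjusted p = 0.00806), and ino80 gave -0.15. Leaving out single libraries kept 11 of the 13 calls and lost those of INO80-(335-1540) in LD and arp5 in SD.

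The neighbouring H3.3 gene AT4G40040 was lower in 5 of 18 comparisons as deposited but in 0 under both other scalings. AT5G10980, the third H3.3 gene, passed in 0 of 18 as deposited and was higher in 6 under equal totals and in 5 under quantile normalization. So no direction for the H3.3 class beyond AT4G40030 was independent of scaling.

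Among the replication-linked classes, the calls in SD of set 1 were mostly higher in uch1/2 and atx4/5;jmj24, where 18.1% and 11.9% of all genes were higher. In uch1/2, 4 of 8 H4 genes and 4 of 5 H3.1 genes were higher, with class medians of 0.29 and 0.34 on the log2 scale, and in atx4/5;jmj24 4 of 8 and 3 of 5 were higher, with medians of 0.30 and 0.26. Without Col-0 repeat 1 the higher calls dropped to 2 of 8 H4 and 2 of 5 H3.1 genes in uch1/2, and to 2 of 8 and 1 of 5 in atx4/5;jmj24. The calls kept whichever library was left out were those of AT3G53730, AT1G09200 and AT3G27360 in uch1/2 and of AT1G07820, AT3G53730 and AT3G27360 in atx4/5;jmj24. AT1G09200 read 1157 and 1218 in uch1/2 and 1087 and 1034 in atx4/5;jmj24 against 830 and 948 in Col-0, without overlap. INO80-FL, at 1054 in both libraries, also stood above Col-0 without passing (log2 0.25, adjusted p = 0.345). The AT1G09200 difference in uch1/2 was 1.34-fold (log2 0.42, SE 0.082, adjusted p = 2.64e-04). Under equal totals the counts in uch1/2 became 5 of 8 and 4 of 5, with medians of 0.48 and 0.53, and under quantile normalization 3 of 8 and 4 of 5, with 0.24 and 0.39. Summed H3.1 was 127% of Col-0 in uch1/2, 119% in atx4/5;jmj24 and 112% in INO80-FL, and the ratio of H3.1 to H3.3 was 0.236, 0.208 and 0.186 against 0.153 in Col-0.

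The H4 gene AT3G53730 showed this most widely. In SD of set 1 it read 457 and 501 in Col-0, 661 in both ino80 libraries, 681 and 746 in uch1/2, 755 and 716 in atx4/5;jmj24, and 640 and 703 in nfrkb1/2/3. All of these lay above Col-0, and INO80-FL, at 547 and 589, lay between. As deposited, AT3G53730 was higher in 7 of 7 lines other than INO80-FL in SD of set 1 and in none of them in LD. The largest difference was 1.54-fold in atx4/5;jmj24 (log2 0.62, SE 0.082, adjusted p = 6.86e-06). Over all 18 comparisons other than INO80-FL it was higher in 7 as deposited, 9 under equal totals and 8 under quantile normalization. Some calls under those scalings thus lay outside SD of set 1. The difference between day lengths itself passed in 6 of 8 lines. With libraries left out in turn 6 of the 7 calls were kept, and that of arp5 was lost.

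Other single genes rose in the same libraries. The H3.1 gene AT3G27360 read 105 and 122 in Col-0, 162 and 164 in uch1/2, and 180 and 171 in atx4/5;jmj24, and the H2A gene HTA13 read 139 and 161 in Col-0, 201 and 225 in uch1/2, and 253 and 222 in atx4/5;jmj24. The log2 fold changes in atx4/5;jmj24 were 0.63 for AT3G27360 (adjusted p = 0.00101) and 0.66 for HTA13 (adjusted p = 2.20e-04). HTA13 was higher in 6 of 18 comparisons as deposited, 11 under equal totals and 5 under quantile normalization. Only its calls in uch1/2 and atx4/5;jmj24 in SD of set 1 were kept whichever library was left out. Annotated genes overlap AT3G27360 and HTA13, as described above. H2AXA was higher in 4 and lower in 1 of 18 as deposited, and higher in 11 under equal totals and 7 under quantile normalization. No H2AXA call as deposited was kept in every refit. Of the H2A.W genes, HTA6 and HTA12 were each lower in 2 as deposited, and HTA7 passed in none. The H3.1 gene AT5G10390 had no higher call as deposited and was lower in INO80-(1-550) in LD (log2 -0.47, adjusted p = 0.0187) and in atx4/5;jmj24 in set 2 (-0.39, adjusted p = 0.0317), where the class medians were both -0.14. Both AT5G10390 calls were lost whichever library was left out (adjusted p from 0.0627 to 0.173) and under equal totals. Among H4 genes, AT5G59970 was lower in INO80-(1-550) in SD (-0.48, adjusted p = 0.00557), a call lost without INO80-(1-550) repeat 1 (adjusted p = 0.0693) and under equal totals. Reads of the H4 genes other than HIS4 and AT3G53730 are uncertain, since 6.94% to 30.8% of their 50-base stretches occur elsewhere in the genome.

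In set 2 no H4 or H3.1 gene passed as higher as deposited, and at an unadjusted p under 0.05 2 H4 genes and 1 H3.1 gene passed in uch1/2 in either direction. Under equal totals 2 H4 genes and 1 H3.1 gene were higher in nfrkb1/2/3. AT3G53730 gave log2 fold changes of -0.02 to 0.10 in the set 2 mutants as deposited, with no call. AT1G09200 read 2146 and 2169 in uch1/2 and 1782 and 1958 in atx4/5;jmj24 against 2110 and 2130 in Col-0. The single H4 call in set 2 was AT1G07820, lower in ino80 (log2 -0.26, adjusted p = 0.0331). It was lost in 3 of 4 refits that left out a library (adjusted p from 0.0729 to 0.177) and under both other scalings. The difference between sets was not tested, because the tables were normalized apart.

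Other gene lists were read in the same SD libraries of set 1, beside 18.1% of all genes higher in uch1/2 and 11.9% in atx4/5;jmj24. Of 10 mitotic genes, 6 were higher in uch1/2 (median log2 0.34) and 1 in atx4/5;jmj24 (0.23), and of 19 DNA replication genes 0 were higher and 1 lower in each. Some of these mitotic calls, as those of CDKB1;1 and CYC1BAT in uch1/2, were lost when a single library was left out. The 3 root marker genes EXPA18, CASP1 and SHV2 were all higher in ino80, nfrkb1/2/3, uch1/2 and atx4/5;jmj24, with a summed value of 2668 ± 345 in uch1/2 and 2344 ± 269 in atx4/5;jmj24 against 1364 ± 172 in Col-0 (SD, n = 2). In set 2 all 3 were again higher in nfrkb1/2/3 and uch1/2. The summed meristem markers, which are weak, read 107.8 and 67.1 in uch1/2 in SD of set 1. They read 53.1 and 37.0 in atx4/5;jmj24 and 27.2 and 32.0 in Col-0. In set 2 they read 35.4 and 23.5 in uch1/2 and 25.1 and 35.5 in atx4/5;jmj24, overlapping Col-0 at 26.1 and 18.0. The summed flower markers were above Col-0 in uch1/2 and atx4/5;jmj24 in both sets. The part of these cell types in the histone values was not tested.

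The transgenic lines asked which part of INO80 restores expression. INO80-FL differed from Col-0 in 0 of 35 members in LD, SD of set 1 and SD of set 2 (limma, adjusted p under 0.05), where 0.121%, 0.129% and 0.0532% of all genes passed. These were 0.039% higher and 0.0819% lower in LD, 0.0819% and 0.0468% in SD of set 1, and 0.0245% and 0.0286% in set 2. At an unadjusted p under 0.05 the counts were 2, 6 and 2, and 1 member passed in SD of set 1 without INO80-FL repeat 1 or without Col-0 repeat 2. Against ino80, INO80-FL had 13 members higher and 0 lower in LD (background 30.8%), 4 and 1 in SD of set 1 (27.2%) and 2 and 0 in set 2 (10.9%). Under equal totals these became 4 and 2 in LD, 1 and 4 in SD of set 1 and 1 and 1 in set 2. Under quantile normalization they became 1 and 2 in SD of set 1. The backgrounds given are for the values as deposited.

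AT2G28720 was higher in INO80-FL than in ino80 in each comparison, by a log2 of 1.27 in LD (adjusted p = 2.34e-07), 1.05 in SD of set 1 (adjusted p = 3.63e-06) and 0.65 in set 2 (adjusted p = 0.0210), a call lost in 3 of 4 refits that left out a library (adjusted p from 0.0976 to 0.113). AT2G30620 was higher by 0.39 in LD (adjusted p = 2.77e-04) and 0.31 in SD of set 1, and AT4G40030 by 0.30 and 0.21 (the latter call lost without INO80-FL repeat 1, adjusted p = 0.155), while neither passed in set 2. AT3G53650 did not follow: INO80-FL differed from ino80 by -0.22, 0.22 and -0.12, and none of these passed.

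The N-terminal line INO80-(1-550) had 1 member higher and 6 lower than ino80 in LD (background 25.6%; 1 and 14 under equal totals) and 1 and 1 in SD (12.6%). Its 1 higher gene in SD was AT2G28720, with a log2 of 0.78 (adjusted p = 4.89e-04), against 0.17 in LD, which did not pass. AT3G53650 in LD was lower than in ino80 (log2 -0.81, adjusted p = 0.00304), at 79.0 and 66.1 against 127 and 128 in ino80 and 77.2 and 91.9 in Col-0.

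The C-terminal line INO80-(335-1540) had 4 higher and 1 lower than ino80 in LD (background 20.8%; 3 and 3 under equal totals, 4 and 2 under quantile normalization) and 0 in SD (6.46%), with 3 at an unadjusted p under 0.05. AT2G28720 gave 0.01 in LD and 0.29 in SD, and neither passed. HIS1-3 was higher than in ino80 in LD by 0.80 (adjusted p = 0.0152), a call lost in 3 of 4 refits (adjusted p from 0.0519 to 0.241). Set against each other, INO80-(1-550) had 9 members lower than INO80-(335-1540) in LD (19.1%; 5 under each of the other scalings) and 3 higher in SD (7.75%; 2 higher and 1 lower under quantile normalization). AT2G28720 was among the latter, at 304 and 305 against 226 and 207 (log2 0.49, adjusted p = 0.0262), but the call was lost whichever library was left out (adjusted p from 0.0686 to 0.182).

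Among 15 histone chaperone genes, ASF1B, which escorts H3 with H4, was higher in ino80 in LD (log2 0.55, adjusted p = 0.00371), in SD of set 1 (0.70, adjusted p = 2.88e-04) and in set 2 (0.67, adjusted p = 0.00681). The ino80 call of ASF1B was lost in 1 of 4 refits in LD (adjusted p = 0.0957) and in 1 of 4 in set 2 (0.0616). INO80-FL gave 0.07, -0.10 and -0.16 for ASF1B, none of which passed. FAS1, the large subunit of the replication-coupled assembly factor CAF-1, was lower in ino80 in SD of set 1 (log2 -0.90, adjusted p = 5.93e-07) and in set 2 (-0.30, adjusted p = 0.0408; lost in 4 of 4 refits, adjusted p from 0.0775 to 0.197) but gave -0.01 in LD. The whole list had 5 higher and 0 lower in ino80 in LD, where 13.2% of all genes were higher and 15.5% lower. It had 1 and 4 in SD of set 1 (16.3% and 18.7%), and 1 and 2 in set 2 (6.79% and 7.21%). NAP1;2, a chaperone of H2A with H2B, was lower in SD of set 1 in ino80 (log2 -0.45, adjusted p = 9.13e-06) and uch1/2 (-0.55, adjusted p = 4.95e-07), and in set 2 gave -0.08 and -0.13, which did not pass.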

How the data were processed

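RNA of whole seedlings gave single-ended reads of 50 bp, per the labels' protocols. For these, the authors used HISAT2 2.2.0, the TAIR10 genome and edgeR, per the submitters' processing notes. The counting program, annotation and strand setting are not given in the sources used here. The deposited unit is a signal per gene, size-adjusted read counts that are not whole numbers, in 1 table per set. Whole reads could not be recovered, so the depth in reads is unknown and no count model was run, in place of the count test first planned.

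The log2(value + 1) scale was used. A gene was tested where 2 or more libraries had a value of 1 or more (25638 in set 1, 24458 in set 2). All groups of a set were fitted together with limma 3.58.1 in R 4.3.3, with a mean-variance trend (18 and 6 residual degrees of freedom), and p-values were adjusted by Benjamini-Hochberg over all genes tested, at 0.05. The fit was also run on simulated counts with the same dispersion setting for every gene and few changed genes. That setting is simpler than these values, so the run does not vouch for the calls above. Fold changes on this scale understate changes of weak genes. Col-0 libraries are shared by the comparisons of a set and day length. The members and lists were chosen with earlier results of these data known. Genes described in detail were the highest member of each class, the 3 H1 genes and the 3 largest called differences in each line. Gene names and windows are from RefSeq (TAIR10.1). Alternatives were pseudocounts, filters, scalings, a replicate block, fits of 2 groups and leaving out each library.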

Additional observations from a re-analysis of the deposited data

Results flagged for a closer look

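The difference between a line and Col-0 was itself different in SD and LD of set 1 for 21 pairs of histone gene and line, by limma's test of that difference at an adjusted p under 0.05. Values are SD minus LD differences of log2 fold changes, and day length and age cannot be told apart in them. They were not put beside set 2, which has no LD libraries. The pairs were 8 members in INO80-(1-550), where 7.11% of all genes passed the same test, 5 in atx4/5;jmj24 (7.27%), 3 in nfrkb1/2/3 (5.4%), 3 in INO80-(335-1540) (12.4%), 1 in ino80 (7.36%) and 1 in uch1/2 (9.74%). Of 35 members these are shares below that of all genes in ino80, uch1/2 and INO80-(335-1540). Under equal totals the counts higher and lower became 10 and 0 in atx4/5;jmj24 and 9 and 1 in INO80-(335-1540), and under quantile normalization 9 and 0 and 5 and 0. The shares of all genes above are for the values as deposited. Refits without single libraries were not run for this test.

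The H4 gene AT3G53730 led the group. Its value was 0.449 in ino80, 0.572 in nfrkb1/2/3, 0.372 in uch1/2, 0.624 in atx4/5;jmj24, 0.607 in INO80-(1-550) and 0.521 in INO80-(335-1540). The H2B gene HTB1 (AT1G07790) followed with 0.48 in nfrkb1/2/3, 0.494 in atx4/5;jmj24, 0.645 in INO80-(1-550) and 0.485 in INO80-(335-1540).

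INO80-(1-550) gave 6 further genes, which were AT3G45930 (H4, 0.575), HTA2 (AT4G27230, 0.449), HTA10 (AT1G51060, 0.46), H2AXA (AT1G08880, 0.362), HTB11 (AT3G46030, 0.324) and AT1G06760 (H1, 0.332). In atx4/5;jmj24 the H2B gene AT3G53650 gave 1.138, the H4 gene AT1G07820 gave 0.355 and the H3.3 gene AT4G40030 gave -0.24. In nfrkb1/2/3 the H3.1 gene AT3G27360 gave 0.65, and in INO80-(335-1540) the H3.3 gene AT4G40040 gave -0.423. The remaining comparisons of this kind had no histone gene past the threshold.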

How the results depend on the processing

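With pseudocounts of 0.5 and 5, no filter, a minimum of 10, and the replicate block, the count of histone genes past the threshold stayed within 1.5 times in all 22 comparisons. With the block, the count in ino80 LD was 10, and the pairing of repeats rests on a shared number only: deviations of same-numbered repeats correlated at -0.105 to 0.096 in set 1 and -0.069 to 0.371 in set 2. Under equal library totals the count moved to 6 in ino80 LD, 10 in uch1/2 LD, 20 in ino80, 24 in atx4/5;jmj24, 20 in nfrkb1/2/3 and 20 in INO80-(335-1540) in SD of set 1, and 9 in nfrkb1/2/3 and 1 in atx4/5;jmj24 in set 2. Quantile normalization gave 6 in ino80 LD. Fitting only the 2 groups compared, which leaves fewer samples, gave 5 in ino80, 3 in uch1/2, 0 in atx4/5;jmj24 and 2 in INO80-(335-1540) in LD, 1 in arp5 in SD, and 0 in ino80 and 0 in atx4/5;jmj24 in set 2. No named difference that was called reversed in sign under these alternatives.

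Leaving out each library in turn gave these counts. In LD they were 3 to 8 in ino80, 0 to 2 in arp5, 5 to 6 in nfrkb1/2/3, 3 to 6 in uch1/2, 2 to 3 in atx4/5;jmj24, 0 in INO80-FL, 9 to 11 in INO80-(1-550) and 3 to 5 in INO80-(335-1540). In SD of set 1 they were 7 to 11 in ino80, 0 to 2 in arp5, 8 to 10 in nfrkb1/2/3, 14 to 17 in uch1/2, 7 to 14 in atx4/5;jmj24, 0 to 1 in INO80-FL, 5 to 8 in INO80-(1-550) and 7 to 11 in INO80-(335-1540), and 20 to 25 for Col-0 SD against LD. In set 2 they were 1 to 2 in ino80, 3 to 4 in nfrkb1/2/3, 2 in uch1/2, 0 to 1 in atx4/5;jmj24 and 0 in INO80-FL. In such a refit the lone library is assumed to vary like the other groups. Groups of 2, values adjusted before deposit and shared H4 sequence limit what these libraries can resolve.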
